A study of Mus musculus with 6 samples.

Results

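Transcripts of the hnRNP and SR protein genes were measured in mouse oligodendrocyte precursor cells (mOPCs) after knockdown of Qk. The genes were taken by symbol: those beginning with Hnrnp, Hnrpd or Hnrpl, those beginning with Srsf and a digit, and Tra2a and Tra2b. This gave 20 hnRNP genes and 13 SR protein genes, 33 of the 23038 genes in the files. The files use the older symbols Hnrpdl and Hnrpll for Hnrnpdl and Hnrnpll.

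hnRNP proteins coat nascent pre-mRNA, and many of them bind silencer sequences and hold back the use of an exon. SR proteins carry an RNA recognition motif and a domain rich in arginine and serine, bind exonic enhancer sequences and recruit the splicing machinery to nearby splice sites. The balance between these families sets the inclusion of many alternative exons, and many of the genes limit their own level through poison exons or introns that send the transcript to nonsense-mediated decay. The Qk gene encodes the Qki proteins, which bind ACUAA-type motifs in RNA and act on splicing, stability and transport of transcripts in the oligodendrocyte lineage.

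The mOPCs, which give rise to the myelinating oligodendrocytes of the central nervous system, were purified by immunopanning from mouse embryos at day 14.5 and cultured. There were 3 libraries from cells given control siRNA (siNC) and 3 from cells given siRNA against Qk (siQk), all of poly-A RNA collected 72 h after transfection and described as biological replicates. The labels mention several siRNAs against Qk but do not say which one a library received, and they name no strain, allele or other treatment. Values are RPKM, that is tags of a gene scaled by its exon length and by the total of the library, as deposited. Total tags ranged from 58166490 to 132085937 in siNC and from 82701288 to 141045937 in siQk. Fold changes are log2 of siQk over siNC from edgeR's quasi-likelihood test with TMM normalization, with standard error (SE) and a Benjamini-Hochberg adjusted p (FDR) over the 12505 genes tested. The cutoffs for calling a transcript changed were P below 0.01 together with FDR below 0.1. RPKM carries no TMM factor. These factors were 0.899 to 0.987 in siNC and 1.04 to 1.07 in siQk, so RPKM differences lie further toward siQk than the fitted ones.

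The targeted gene was lower in every siQk library. Qk stood at 209, 206 and 163 RPKM in siNC and at 51.3, 76.6 and 36.2 RPKM in siQk, a log2 fold change of -1.98 (SE 0.28, FDR 0.0031). In the siNC libraries the 5 OPC markers summed to 639 to 646 RPKM, and in the siQk libraries to 840 to 998 RPKM. The summed level of 5 astrocyte markers was 151 to 226 RPKM in siNC and 119 to 139 RPKM in siQk. Within that list, Gfap fell from 51.4, 54.6 and 101 RPKM to 9.16, 9.08 and 11.3 RPKM (log2 fold change -2.95, SE 0.26, FDR 0.0009) and Slc1a2 from 18.6, 13.0 and 20.9 RPKM to 9.86, 9.07 and 9.09 RPKM (-1.06, SE 0.17, FDR 0.0049), and the other tested members were not called. The part of these falls in the hnRNP and SR protein levels was not tested. Fibroblast and vascular markers reached at most 0.239 RPKM in sum, and 1 of these 4, Cldn5, was listed at 0 in all libraries. Microglia markers summed to 0.705 to 3.30 RPKM in siNC and 0.297 to 0.403 RPKM in siQk. The 5 neuron markers summed to 28.7 to 46.8 RPKM in siNC and 29.0 to 42.1 RPKM in siQk. Elavl3 made up most of these sums, at 26.3 to 44.3 RPKM in siNC and 22.0 to 31.0 RPKM in siQk. Of the 4 neuron markers tested, Snap25 was higher (log2 fold change 2.64, SE 0.32, FDR 0.0021). Syt1 (0.87, SE 0.30), Elavl3 (-0.61, SE 0.24) and Rbfox3 (-0.57, SE 0.34) were not called.

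More of the hnRNP and SR protein transcripts moved up than down in siQk, and they moved by modest amounts. All 33 genes were tested and 15 were called changed (45.5%), against 31.0% of all genes tested. Higher transcripts made up 14 of these (42.4% of the 33), against 13.8% of all genes, and 1 was lower (3.03%), against 17.2% of all genes. Among the hnRNP genes, 9 were higher, 1 was lower and 10 were not called. Among the SR protein genes, 5 were higher, none was lower by edgeR's test (none of the 13 had a negative fold change at an unadjusted p under 0.05, and DESeq2 also called none lower) and 8 were not called. The median log2 fold change was 0.22 for the hnRNP genes and 0.25 for the SR protein genes, beside 0.01 for all genes tested. The higher transcripts rose by 0.22 to 0.61 on the log2 scale, which is 1.17-fold to 1.53-fold. None of the 33 genes reached an absolute log2 fold change of 1, which 1008 of the genes tested did. The called members had a median absolute log2 fold change of 0.40, beside 0.59 for all called genes.

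These transcripts are abundant and were measured with a small error. Their median level was an average logCPM (abundance relative to library size, on the log2 scale) of 7.63, beside 5.19 for all genes tested, and 31 of the 33 lay above that median. Their median SE was 0.066, beside 0.106 for all genes tested. Leaving out the siQk 1 library reduced the called members from 15 to 9 (8 of them higher) and the calls over all genes from 3879 to 2478. With library size alone as the scale, 25 members were higher and none lower, while the median over all genes moved to 0.16 and the higher share of all calls from 44.6% to 68.6%. In bulk RNA, a change in the make-up of the culture and a change of RNA per cell cannot be told apart.

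**Figure D1:**
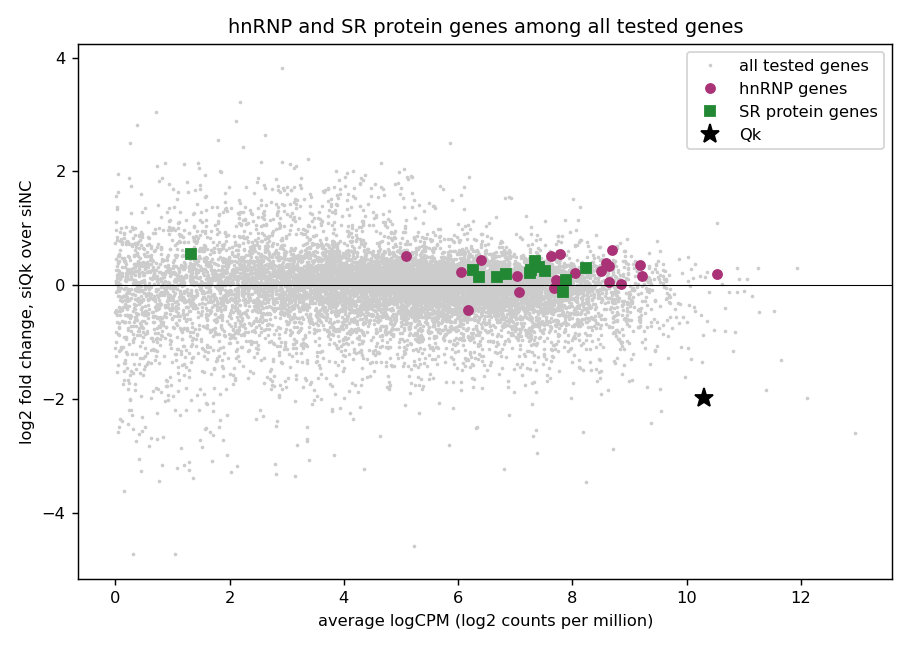
Log2 fold change, siQk over siNC, of each gene tested (vertical axis) against its average logCPM (horizontal axis), with hnRNP genes as circles, SR protein genes as squares and Qk as a star. The 33 genes lie between -0.43 and 0.61, most of them on the right of the cloud of genes, while Qk lies at -1.98.

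The H/F subfamily, whose proteins bind runs of G in and around exons, held both the highest rise and the only called fall among the hnRNP genes. Hnrnph1 (Entrez 59013, chr11:50376990-50386528, plus strand, mm10) stood at 139, 153 and 149 RPKM in siNC and at 251, 260 and 239 RPKM in siQk. Each siQk library was above each siNC library, with a log2 fold change of 0.61 (SE 0.06, FDR 0.0012). Hnrnph3 (Entrez 432467, chr10:63014664-63024217, minus strand), a shorter relative, was at 29.4, 33.6 and 31.6 RPKM in siNC and at 47.3, 47.5 and 47.2 RPKM in siQk. It rose by 0.44 (SE 0.06, FDR 0.0025), and its siQk libraries were close together, at 47.3 ± 0.132 RPKM (SD, n = 3).

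Hnrnpf (Entrez 98758, chr6:117900324-117925622, plus strand) went the other way. It was at 26.5, 25.2 and 27.3 RPKM in siNC and at 21.5, 23.7 and 19.8 RPKM in siQk, so that all siQk libraries lay below all siNC libraries. The log2 fold change was -0.43 (SE 0.08, FDR 0.0077). With library size alone as the scale it was -0.28 and no longer called (FDR 0.034, past the P cutoff). Hnrnpf shares stretches of at least 200 bases at 95% identity or more with 9 other genes of the annotation, 6 of them pseudogenes, among which tags could be split. Hnrnph2, on chromosome X, was at 55.0, 59.1 and 56.3 RPKM in siNC and at 60.2, 58.4 and 55.8 RPKM in siQk. These ranges overlapped, and the log2 fold change of -0.12 (SE 0.06) was not called and was 0.03 with library size alone as the scale.

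The ratio of Hnrnph1 to Hnrnpf RPKM, which does not depend on the scaling of a library, was 5.26, 6.08 and 5.46 in siNC and 11.67, 10.98 and 12.03 in siQk. The means were 5.60 ± 0.427 and 11.6 ± 0.531 (SD, n = 3). The pair was chosen after its values were seen, and the exact two-sided permutation test gave p = 0.1, the smallest that 3 libraries against 3 allow.

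**Figure D2:**
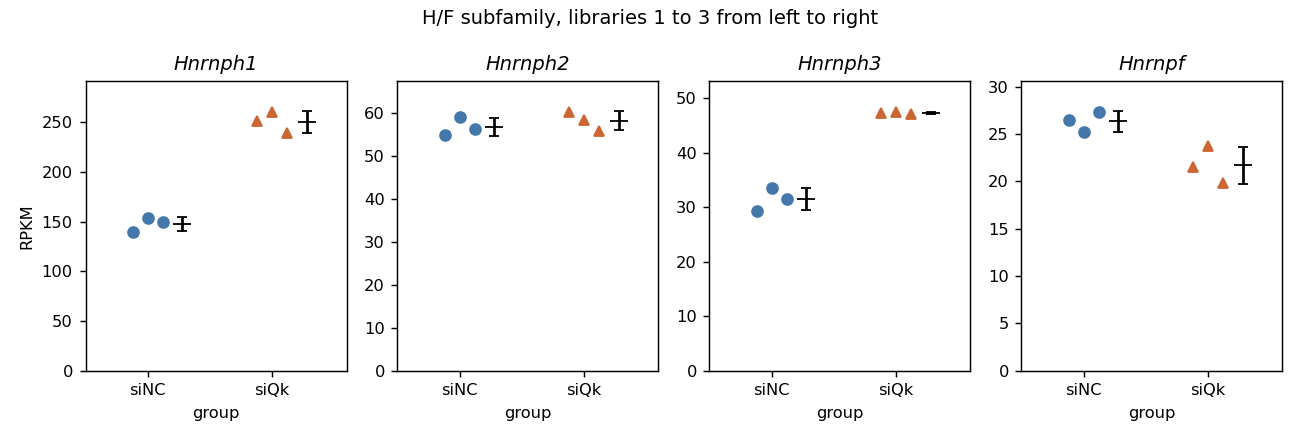
RPKM (vertical axis, from 0) of the 4 H/F genes in each library of siNC (circles) and siQk (triangles), with the mean and SD of each group as a bar at the right of its points (n = 3). Hnrnph1 and Hnrnph3 are higher in every siQk library, Hnrnpf is lower in every siQk library, and the groups overlap for Hnrnph2.

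In the A/B and D subfamily, 4 of 7 genes were higher and none was lower, beside 13.8% and 17.2% of all genes tested. All 7 fold changes were between 0.19 and 0.56. Hnrpdl (Entrez 50926, chr5:100033577-100039664, minus strand), a relative of the mRNA decay factor gene Hnrnpd, was at 57.8, 65.5 and 62.1 RPKM in siNC and at 101 RPKM in each siQk library. Its log2 fold change was 0.56 (SE 0.06, FDR 0.0013). Hnrnpa1 (Entrez 15382, chr15:103240432-103246692, plus strand) encodes a much studied splicing repressor. Its level was 14.8, 14.4 and 13.0 RPKM in siNC and 22.8, 23.8 and 20.7 RPKM in siQk, and it rose by 0.52 (SE 0.10, FDR 0.009). Hnrnpa1 has 9 near-identical copies, all pseudogenes and up to 1117 bases long, so that its RPKM is uncertain to the degree that tags were shared with them.

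Hnrnpa0 (Entrez 77134, chr13:58125879-58128556, minus strand), which binds AU-rich elements, was at 50.6, 61.4 and 61.6 RPKM in siNC and at 93.8, 92.1 and 88.1 RPKM in siQk. It rose by 0.51 (SE 0.07, FDR 0.0029), and no near-identical copy was found for it. Hnrnpab (Entrez 15384, chr11:51600100-51606847, minus strand), which takes part in mRNA transport, was at 206, 193 and 203 RPKM in siNC and at 303, 291 and 267 RPKM in siQk. Its log2 fold change was 0.36 (SE 0.08, FDR 0.017). Leaving out siNC 2, siNC 3, siQk 1 or siQk 2 ended that call, at fold changes of 0.32, 0.34, 0.32 and 0.36. In the annotation, 29.1% of its exon bases overlap exons of Phykpl on the opposite strand, and the library kit does not mark strand.

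Hnrnpa2b1 had the highest level of all 33 genes. Its protein binds the transport element of myelin basic protein mRNA in oligodendrocytes. Its level was 308, 324 and 331 RPKM in siNC and 417, 423 and 385 RPKM in siQk, without overlap, and it made up 17.9% of the summed hnRNP RPKM in each siNC library and 17.1% to 17.3% in the siQk libraries. The log2 fold change of 0.19 (SE 0.07, FDR 0.072) was not called, since its P was above 0.01. DESeq2 called it, at an adjusted p of 0.0073. The ratio of Hnrnpa2b1 to Hnrnpa1 RPKM was 22.9 ± 2.37 in siNC and 18.2 ± 0.389 in siQk (SD, n = 3). This ratio carries the uncertainty of the Hnrnpa1 RPKM, since tags could be shared with its 9 pseudogene copies. Hnrnpd (0.21) and Hnrnpa3 (0.23) were not called. Hnrnpa3 had the lowest level of the hnRNP genes, 12.1 to 14.1 RPKM in siNC and 16.2 to 17.4 RPKM in siQk, and the most near-identical copies, 28. Leaving out siNC 2 brought Hnrnpa3 to 0.29, which was called.

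Among the other hnRNP genes, 1 of 3 in the U subfamily, 1 of 2 in the L subfamily and 1 of the remaining 4 were higher. The share over all genes tested was 13.8%. Hnrnpul2 (Entrez 68693, chr19:8820010-8834143, plus strand), a relative of the nuclear scaffold protein gene Hnrnpu, was at 52.0, 57.5 and 55.6 RPKM in siNC and at 81.2, 80.4 and 79.9 RPKM in siQk. It rose by 0.40 (SE 0.06, FDR 0.0039). Its relatives Hnrnpu (0.16, SE 0.08) and Hnrnpul1 (-0.04, SE 0.06, or 0.11 with library size alone as the scale) were not called.

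Hnrnpm (Entrez 76936, chr17:33646233-33686860, minus strand), which binds GU-rich sequence, was at 65.1, 66.1 and 73.0 RPKM in siNC and at 99.5, 98.8 and 89.4 RPKM in siQk. Its log2 fold change was 0.34 (SE 0.07, FDR 0.011), and without siQk 1 it was 0.32 and not called. In the annotation, 14.7% of the exon bases of Hnrnpm overlap exons of March2 on the same strand. March2 itself was not called (-0.01, SE 0.08). Hnrnpl (Entrez 15388, chr7:28808541-28822266, plus strand), which binds CA repeats, was at 134, 137 and 149 RPKM in siNC and at 186, 185 and 180 RPKM in siQk. Hnrnpl rose by 0.24 (SE 0.06, FDR 0.021), and leaving out siNC 2, siQk 1, siQk 2 or siQk 3 ended the call, at 0.21, 0.23, 0.25 and 0.25. Hnrpll (0.16, SE 0.06) was not called.

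Hnrnpk, Hnrnpc and Hnrnpr, which bind C-rich, U-rich and AU-rich RNA, differed little between the groups. Hnrnpk was at 123, 129 and 126 RPKM in siNC and at 145, 147 and 134 RPKM in siQk, without overlap, yet its log2 fold change after TMM was 0.02 (SE 0.07). Hnrnpc (0.06, SE 0.07) and Hnrnpr (0.09, SE 0.06) were not called either. Without siNC 3, the fold change of Hnrnpk was -0.0051.

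Of the SR protein genes, 3 of 8 classical members and 2 of the other 5 were higher, beside 13.8% of all genes tested. Srsf7 (Entrez 225027, chr17:80200080-80207307, minus strand), which also takes part in mRNA export, was at 49.97, 49.8 and 51.3 RPKM in siNC and at 77.7, 80.8 and 68.0 RPKM in siQk. The log2 fold change was 0.43 (SE 0.08, FDR 0.0068). Srsf3 (Entrez 20383, chr17:29032628-29043373, plus strand), the smallest SR protein and a partner of Srsf7 in export, was at 58.7, 64.0 and 62.8 RPKM in siNC and at 89.0, 87.1 and 81.2 RPKM in siQk. It rose by 0.32 (SE 0.06, FDR 0.0076). Srsf3 has 4 near-identical copies, 3 of them pseudogenes, with matches of up to 1298 bases. The calls of Srsf7 and Srsf3 held without each library in turn.

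Srsf2 (Entrez 20382, chr11:116849901-116853094, minus strand), a marker of nuclear speckles, was at 68.3, 69.9 and 72.5 RPKM in siNC and at 92.4, 94.8 and 85.9 RPKM in siQk. The groups did not overlap, and the log2 fold change was 0.22 (SE 0.06, FDR 0.026). Leaving out siNC 1, siNC 2, siNC 3, siQk 1 or siQk 2 ended this call, at 0.24, 0.21, 0.22, 0.21 and 0.20. On the opposite strand, exons of Mettl23 overlap 15.6% and exons of Mfsd11 overlap 9.74% of the exon bases of Srsf2. Mfsd11 was itself lower in siQk (-0.41, SE 0.07, FDR 0.0063).

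Tra2a (Entrez 101214, chr6:49243924-49264033, minus strand), which binds GA-rich enhancers, was at 78.4, 83.1 and 85.0 RPKM in siNC and at 116, 112 and 103 RPKM in siQk. It rose by 0.27 (SE 0.06, FDR 0.014), but was not called without siQk 1 (0.24) or without siQk 2 (0.27). Its close relative Tra2b had 0.20 (SE 0.06, FDR 0.037) and was not called. Srsf11 (Entrez 69207, chr3:158010473-158036639, minus strand) was at 25.1, 28.3 and 27.7 RPKM in siNC and at 35.1, 36.9 and 34.8 RPKM in siQk. It rose by 0.25 (SE 0.06, FDR 0.016), a call that was lost without siNC 1, siQk 1, siQk 2 or siQk 3, at 0.23, 0.26, 0.23 and 0.26.

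The 8 SR protein genes that were not called had fold changes from -0.12 to 0.55. Srsf12, a relative of Srsf10, had the lowest level of all, 0.486, 0.663 and 0.786 RPKM in siNC and 0.859, 1.39 and 0.904 RPKM in siQk, with 83 tags in its shallowest library. Its log2 fold change of 0.55 was the third highest of the 33, came with the largest error of them (SE 0.24, FDR 0.12) and was not called. Srsf1, the founding member of the family, was at 48.3, 53.7 and 45.5 RPKM in siNC and at 69.7, 67.5 and 64.4 RPKM in siQk. Its fold change of 0.30 (SE 0.09, FDR 0.035) missed the P cutoff. Srsf1 without siNC 2 was called, at 0.35.

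Srsf4 (0.27, SE 0.08, FDR 0.034) also missed the cutoff, and 43.0% of its exon bases overlap the transcript Gm12992 on the opposite strand. Srsf5 had the highest level of the SR protein genes, 131, 138 and 155 RPKM in siNC and 142, 152 and 138 RPKM in siQk. Its groups overlapped, and it was the only SR protein gene with a negative fold change (-0.12, SE 0.07), which was positive (0.03) with library size alone as the scale. Srsf6 (0.10), Srsf9 (0.15) and Srsf10 (0.14) lay between.

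**Figure D3:**
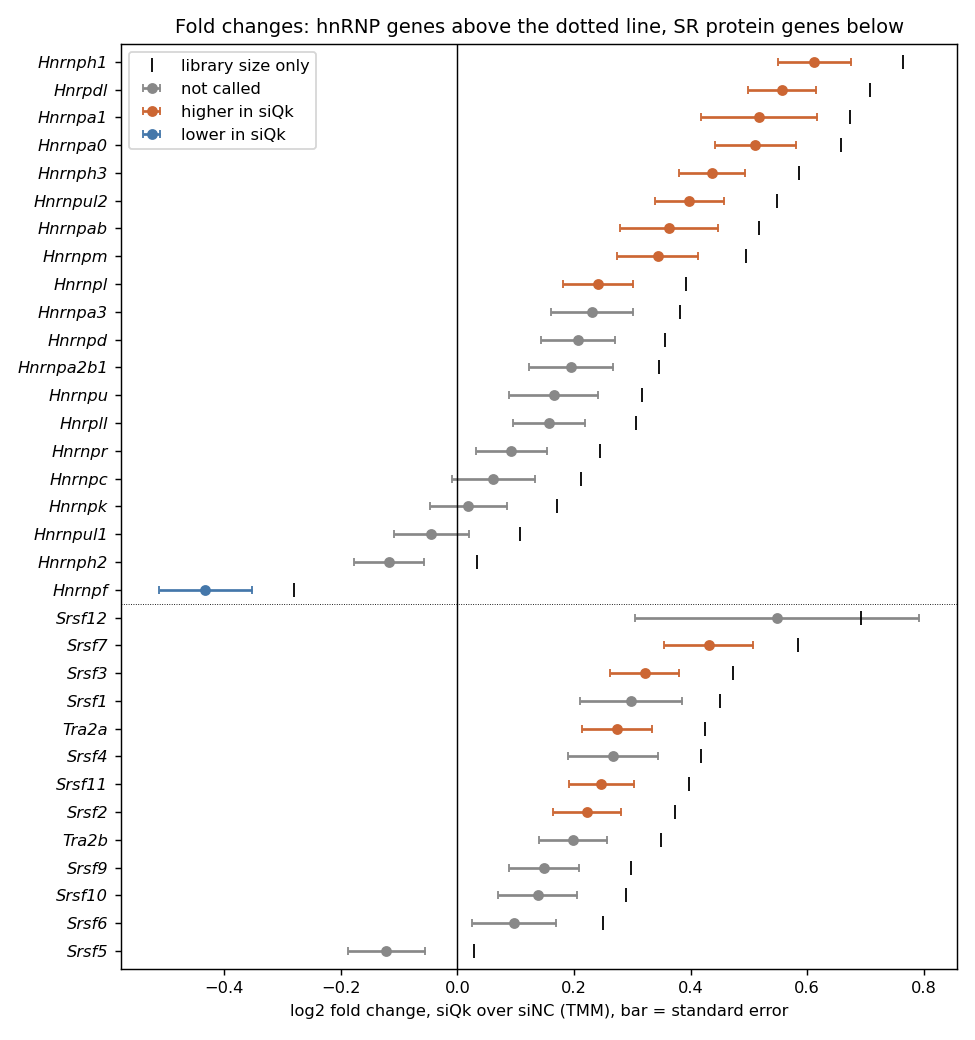
Log2 fold change of each gene, siQk over siNC, with TMM (point, bar = SE, coloured by call) and with library size alone (vertical tick); hnRNP genes stand above the dotted line and SR protein genes below. The ticks lie to the right of the points for all 33 genes, and Hnrnpf is the only gene left of 0 on both scales.

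The genes covered a wide range of levels. Over all libraries, hnRNP genes ran from 12.1 RPKM (Hnrnpa3) to 423 RPKM (Hnrnpa2b1), and SR protein genes from 0.486 RPKM (Srsf12) to 155 RPKM (Srsf5). Among the hnRNP genes in siNC, Hnrnpa2b1 was followed by Hnrnpab (200 ± 7.002 RPKM, SD, n = 3) and Hnrnpu (199 ± 10.2 RPKM), whose ranges overlapped, then by Hnrnph1 (147 ± 7.19 RPKM) and Hnrnpl (140 ± 8.23 RPKM), which overlapped as well. Among them in siQk, Hnrnph1 (250 ± 10.8 RPKM) and Hnrnpu (248 ± 20.7 RPKM) overlapped, both under Hnrnpab (287 ± 18.4 RPKM).

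Summed over the family, hnRNP transcripts were at 1722, 1808 and 1850 RPKM in siNC and at 2430, 2445 and 2250 RPKM in siQk. They held 0.559% to 0.604% of all tags in siNC and 0.724% to 0.788% in siQk. SR protein transcripts summed to 665, 701 and 722 RPKM in siNC and to 889, 907 and 827 RPKM in siQk, and held 0.167% to 0.178% of all tags in siNC and 0.210% to 0.231% in siQk. Both sums were higher in every siQk library than in any siNC library.

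**Figure D4:**
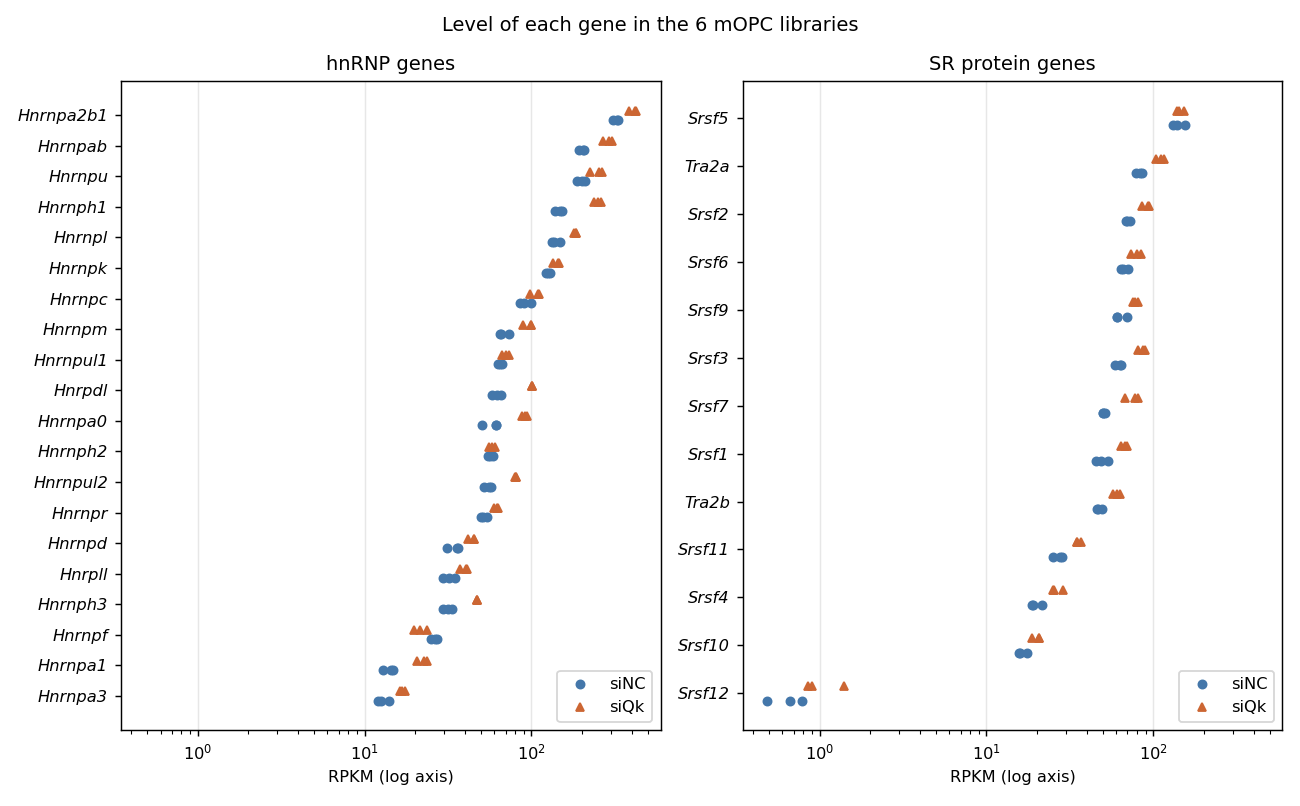
RPKM of each gene (horizontal axis, logarithmic) in the 3 siNC libraries (circles) and the 3 siQk libraries (triangles), ordered by mean level in siNC. Levels run from 0.486 RPKM (Srsf12) to 423 RPKM (Hnrnpa2b1), and most genes have their triangles to the right of their circles.

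By RPKM, 28 of the 33 genes had all siQk libraries above all siNC libraries, against 41.9% of all genes tested, and 1, Hnrnpf, had them below, against 16.4%. The ranges overlapped for Hnrnpc, Hnrnph2, Hnrnpul1 and Srsf5. After division by the TMM factor, 24 stood above, against 27.8% of all genes, and 2, Hnrnpf and Srsf5, stood below, against 26.5%. By RPKM the ranges were apart, in either direction, for 58.3% of all genes.

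Within siQk, the siQk 3 library was the lowest for 31 of the 33 genes by RPKM and for 29 after division by the TMM factor, beside 42.6% and 37.7% of all genes. Qk itself was also lowest in siQk 3, at 36.2 RPKM. Since the siRNA of each library is not stated, a difference between siQk libraries and a difference between siRNAs cannot be told apart. The summed RPKM of 7 cell cycle genes was 71.3 to 87.2 in siNC and 198, 149 and 115 in siQk 1, 2 and 3. Of the 7, 5 were higher, beside 13.8% of all genes tested. Their median log2 fold change was 1.40, beside 0.01 for all genes tested. Of the 5 OPC markers, Cspg4, Olig1 and Olig2 were higher, while Pdgfra (0.10, SE 0.16) and Sox10 (-0.02, SE 0.10) were not called. The sum of the 5 OPC markers was also lowest in siQk 3 among the siQk libraries. The part of these differences in the hnRNP and SR protein levels was not tested.

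Because Qki proteins bind ACUAA-type motifs, each gene's 3′UTR, in its longest annotated form, was searched on the transcript strand for ACTAAC or ACTAAT (GENCODE M21, GRCm38, the assembly of mm10). Of the 33 genes, 17 (51.5%) held at least 1 such motif, beside 36.1% of all genes with a 3′UTR, at 0.50 per kilobase beside 0.34. Among the 14 higher members it was 5 (35.7%, 0.41 per kilobase), and among the 18 not called it was 11 (61.1%, 0.52 per kilobase). Over all genes tested, 27.3% of the higher and 52.9% of the lower genes held one. The median 3′UTR was 1188 bases long among the higher members and 1875 among those not called. For Hnrnpr, not called, the searched 3′UTR (19419 bases, 10 motifs) was longer than the gene's whole exon length in the files (3733 bases). This also held for Hnrnpu (5011 against 2684 bases, 3 motifs) and Tra2b (2307 against 2135 bases, 3 motifs), neither of them called. The windows below show motifs of called members, to let the transcripts that moved be compared at the sequence. Each is read from the transcript 5′ to 3′ with the motif in capitals.
Hnrnph3, chr10:63014791-63014820, minus strand: aacgtgctttctACTAATctttttattact
Hnrnpul2, chr19:8832060-8832089, plus strand: tcacttgcaccaACTAACcgtttgtatttt
Hnrnpul2, chr19:8832394-8832423, plus strand: ctggaatcatttACTAATattgcctgcctc
Srsf3, chr17:29041722-29041751, plus strand: taagtgtgatgtACTAATgatataaagcaa
Srsf3, chr17:29042436-29042465, plus strand: tggctgttagtgACTAACattttaaagtaa
Srsf11, chr3:158011443-158011472, minus strand: ggttatatatgcACTAACcttttttgatgg
Hnrnpf, chr6:117925466-117925495, plus strand: ttgagacacaatACTAATactgtaggaatt

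The only lower member, Hnrnpf, thus held 1 motif. The 3′UTRs of Hnrnph1 and Hnrpdl, which rose most, held none. Yet 5 of the 14 higher members held at least 1, among them Hnrnph3 (0.44), Hnrnpul2 (0.40) and Srsf3 (0.32). Hnrnpa2b1, the most abundant and not called, held 2 in a 3′UTR of 523 bases, shown here for comparison. A match is a string of letters, not a measured binding site.
Hnrnpa2b1, chr6:51461395-51461424, minus strand: ttgctgcaggtaACTAATgaagaagtggtc
Hnrnpa2b1, chr6:51460978-51461007, minus strand: ttctcattcaatACTAATaggagaaaaaag

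The annotation lists at least 1 transcript marked for nonsense-mediated decay for 21 of the 33 genes (63.6%), beside 29.0% of all genes. This held for 11 of the 13 SR protein genes (84.6%) and 10 of the 20 hnRNP genes. It was 9 of the 14 higher members and 12 of the 18 not called. A transcript with a retained intron was annotated for 24 of the 33 (72.7%), beside 60.03% of all genes. These shares were not adjusted for the number of annotated transcripts, which ran from 1 (Hnrnpa0) to 34 (Hnrnpk) among the members. The values here sum over all transcripts of a gene, so that productive and decay-bound transcripts were not separated.

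Genes that act with these proteins were read from the same fit, by lists. Of 10 genes of hnRNP proteins with other symbols, 3 were higher and none was lower. All 10 fold changes were positive, beside 6402 of the 12505 over all genes tested. The called share was 30%, beside 31.0% of all genes tested, of which 13.8% were higher and 17.2% lower. The 3 higher genes were Rbmx (0.68, SE 0.08, FDR 0.002), Cirbp (0.47, SE 0.06) and Ptbp1 (0.40, SE 0.07). Rbmx works with the Tra2 proteins, Cirbp is a cold-induced RNA binding protein and Ptbp1 a repressor of neuronal exons. Rbmx was at 17.0, 19.4 and 17.5 RPKM in siNC and at 32.5, 34.3 and 28.8 RPKM in siQk.

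Of 7 genes of kinases that phosphorylate SR proteins, 2 were higher and none was lower. The called share was 28.6%, beside 31.0% of all genes tested, of which 13.8% were higher and 17.2% lower. Srpk1, which phosphorylates SR proteins in the cytoplasm for import, was at 23.8, 23.8 and 24.1 RPKM in siNC and at 36.8, 39.5 and 35.0 RPKM in siQk (0.48, SE 0.06, FDR 0.0028). Clk2, a nuclear SR kinase, rose by 0.35 (SE 0.09, FDR 0.022). The median over the 7 was -0.06.

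The arginine methylation list held 4 genes. Prmt1, Prmt5 and Carm1 encode methyltransferases that modify hnRNP and Sm proteins, and Wdr77 encodes a partner of Prmt5. Of the 4 genes, 3 were higher (75%, beside 31.0% of all genes tested called and 13.8% higher). They were Prmt5 (0.43, SE 0.08), Prmt1 (0.35, SE 0.08) and Wdr77 (0.30, SE 0.07). Carm1 (0.31, SE 0.12, FDR 0.095) was not called. None of the 3 import receptor genes was called by edgeR. Of these, Tnpo2 (0.14, FDR 0.08) and Tnpo3 (0.22, FDR 0.062) were under 0.05 before adjustment, 2 of the 3. Of 8 nonsense-mediated decay factor genes, 1 was higher (12.5%, beside 13.8% of all genes tested), Upf3b (0.40, SE 0.08, FDR 0.0086).

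The 16 genes of SR-related proteins gave 4 higher and 1 lower (31.25% called, beside 31.0% of all genes tested). Higher were Luc7l (0.43, SE 0.06), a relative of a U1 snRNP component, Acin1 (0.35, SE 0.05) and Rnps1 (0.34, SE 0.07), which join the exon junction machinery, and Sfswap (0.24, SE 0.06). Rsrc1, an SR-related splicing factor, was at 10.5, 9.58 and 10.3 RPKM in siNC and at 9.15, 9.12 and 8.68 RPKM in siQk (-0.33, SE 0.07, FDR 0.015).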

How the data were processed

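Poly-A RNA of 3 siNC and 3 siQk cultures of mOPCs was sequenced. The authors used OLego to map the reads (mm10) and Quantas for gene-level quantification; their versions and the annotation are not given in the sources used here. Per gene, the authors deposited an estimated count of tags, which can carry decimals (23.1% to 26.2% of genes per library), and an RPKM value. The sources do not say if tags are reads or pairs, or how tags with several matches were treated.

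Here the estimated counts were rounded and tested in R 4.3.3 by edgeR 4.0.16 (quasi-likelihood, limma 3.58.1 beneath it) with group as the sole term. Genes entered if their mean logCPM passed 0, which left 12505, and TMM factors came from these. SE was obtained as the size of the log2 fold change over the root of F. Replicates differed by more than sampling noise (chi-square per degree of freedom of at least 36.3). The ribosomal gene Rn45s took 3.11% of tags in siNC 1 and 0.169% to 0.389% in the other libraries. BLAST+ 2.17.0 was used to find near-identical copies, and 12064 of the genes tested, with all 33 members, matched GENCODE M21. Of the motif windows of called members, 1 is not reported here.

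The members and lists were chosen with earlier results of these data known. Named were Qk, every called member, and up to 3 called genes of each related list by absolute fold change. Also named were members not called with the highest or lowest RPKM of their family or among the 3 with the largest absolute fold change. Rsrc1, Sfswap, Carm1, Tnpo2, Tnpo3, genes with overlapping exons, single marker genes and other members not called were named after their values were seen. Among neuron markers, 1 of 4 tested genes was higher. Alternatives were DESeq2 1.42.0, other normalizations and filters, thinning to the smallest library, a stricter cutoff, the replicate number as a block and each library left out in turn.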

Additional observations from a re-analysis of the deposited data

How the results depend on the processing

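Over 14 settings and 34 genes (the 33 members and Qk), 414 of 476 values kept their direction and side of the cutoff, 26 lost and 31 gained a call, and 5 changed sign. The calls of Hnrnpa0, Hnrnpa1, Hnrnph1, Hnrnph3, Hnrnpul2, Hnrpdl, Srsf3, Srsf7 and Qk (-2.29 to -1.76) held in all 14. The sign changed for Hnrnpul1 with upper quartile normalization (0.016) and library size alone (0.11), for Srsf5 (0.028) and Hnrnph2 (0.034) with library size alone, and for Hnrnpk without siNC 3 (-0.0051, beside up to 0.053 without another library), none of them called. Library size alone gave 25 changed members, 25 higher and 0 lower (Hnrnpf being lost), 10 SR protein genes changed, medians of 0.37 (hnRNP) and 0.40 (SR), and 2989 higher and 1365 lower genes in all, because the all-gene median moves to 0.16. DESeq2 and upper quartile normalization each called 8 SR protein genes. With upper quartile normalization the all-gene median was 0.071 and 55.6% of all calls were higher. With DESeq2 the all-gene median was 0.0024 and 4894 genes were called in all. The cause of the added SR protein calls was not tested. With a stricter cutoff (FDR below 0.05, log2 fold change of 1 or more in size), 946 genes were called (326 higher, 620 lower) and 0 members, since no member reached that fold change. Without each library in turn, changed members ranged from 9 to 14 (higher 8 to 13, lower 1), hnRNP genes from 7 to 10, SR protein genes from 2 to 5 (2 without siQk 1 or siQk 2, 3 without siNC 1), and all genes from 2478 to 3704 (higher 1008 to 1610, lower 1470 to 2094), with fewer samples in the fit. Deviations from the group mean had correlations of -0.053, -0.15 and -0.34 between same-numbered siNC and siQk libraries. These cannot decide if such libraries were paired, since the deviations of 3 libraries offset one another within a group. With the replicate number as a block, 10 members were changed, 9 of them higher, with 2 SR protein genes and 2796 genes in all. The member with the fewest tags was Srsf12, with 83 in the smallest library, and thinning all libraries to the smallest did not change its call.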
